A study of Mus musculus with 6 samples.

Results

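Erythroid and megakaryocyte genes were described as a set of 28 genes known for their roles in red cells, platelets and their precursors. The set held transcriptional regulators, receptors, haemoglobin genes, red cell membrane genes and enzymes, and platelet genes. Their DNA methylation came from enhanced reduced representation bisulfite sequencing, which reads CpG-rich restriction fragments after unmethylated cytosine has been converted. For each gene the CpG positions covered in all 6 libraries, called shared positions, were taken from its extent and 2 kb on either side. Of the 28 genes, 19 had a shared position and 18 had at least 3 of them in a testable region, among 34627 genes of which 20993 had a shared position.

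The libraries came from bone marrow of male C57BL/6 mice aged 7 to 10 months. The knock-in mice, called KI, had the genotype IDH1+/lsl VavCre+, and their littermates, called Control, had IDH1+/+ VavCre+. All mice thus carried Cre driven by Vav, a promoter active in blood cells, and the allele written lsl was present in KI alone, on 1 of the Idh1 copies. Marrow was pooled from 6 mice per group and sorted into long-term haematopoietic stem cells (LT-HSC; Lin- Sca+ Kit+ CD150+ CD48-), short-term haematopoietic stem cells (ST-HSC; Lin- Sca+ Kit+ CD150+ CD48+) and multipotent progenitors (MPP; Lin- Sca+ Kit+ CD150-). There was 1 library per genotype and cell type and no replicate of any group. Libraries of KI and Control were run on different lanes, going by the lane numbers in the deposited names, and genotype cannot be told apart from lane.

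Red cells and platelets descend from a common progenitor, and its genes are driven by GATA factors working with partners such as FOG1, KLF1 and NFE2. Stem cells and multipotent progenitors lie upstream of that progenitor, and many genes of the set reach full expression only downstream of them. Methylation of CpG-rich promoters is associated with silent genes, whereas CpGs inside active genes are commonly methylated. The TET enzymes, which oxidise methylated cytosine, need 2-oxoglutarate, the product of IDH1. The first comparison set knock-in against littermate cells, and the second set progenitors against stem cells.

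The assay reached the set unevenly. Of the 27 genes found in the RefSeq gene table, 8 had no shared position: Hba-a1, encoding alpha globin; Car1, a carbonic anhydrase; Rhag and Aqp1, membrane channels; Gp1ba and Gp9, subunits of the von Willebrand receptor; Ppbp, a platelet chemokine; and Tubb1, the platelet beta tubulin. Ahsp, the alpha globin chaperone, had no entry in the table, and Epb42, encoding protein 4.2, had 1 position in its flank. The 19 covered genes were 67.9% of the set, and 60.6% of all genes were covered. They held 951 shared positions, of which 411 lay within 1 kb of either gene end, 439 in gene bodies and 101 in flanks. Zfpm1 (192 positions), Epb41 (164) and Ank1 (155) held more than any other gene of the set, and Slc4a1 (9), Pf4 (7) and Selp (4) were at the low end among the genes tested.

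The sequence around annotated starts showed where the assay read. RefSeq promoter windows, from 250 bases before to 50 after a start, existed for 19 of the 28 genes in 22 windows on GRCm38.p6, the same assembly as mm10. For the 5 genes with at least 3 shared positions there, the window with the most of them is printed 5′ to 3′ on the strand of the gene, with CG pairs that were measured in all 6 libraries in capitals. They show how dense in CpG the measured starts were.
Zfpm1, chr8:122281891-122282190, plus strand: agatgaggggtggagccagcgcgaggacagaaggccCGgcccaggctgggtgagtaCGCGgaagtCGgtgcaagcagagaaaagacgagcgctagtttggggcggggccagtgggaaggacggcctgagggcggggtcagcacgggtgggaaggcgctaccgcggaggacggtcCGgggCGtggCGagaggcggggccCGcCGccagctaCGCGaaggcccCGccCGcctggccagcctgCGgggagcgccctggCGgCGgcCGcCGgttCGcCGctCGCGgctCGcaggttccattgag
Epb41, chr4:132049029-132049328, minus strand: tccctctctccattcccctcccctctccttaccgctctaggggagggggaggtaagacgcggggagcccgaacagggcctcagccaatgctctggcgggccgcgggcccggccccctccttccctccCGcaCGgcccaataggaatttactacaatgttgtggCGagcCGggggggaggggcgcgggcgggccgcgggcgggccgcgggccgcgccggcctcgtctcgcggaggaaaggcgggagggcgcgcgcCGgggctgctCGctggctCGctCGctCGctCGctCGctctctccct
Sptb, chr12:76710498-76710797, minus strand: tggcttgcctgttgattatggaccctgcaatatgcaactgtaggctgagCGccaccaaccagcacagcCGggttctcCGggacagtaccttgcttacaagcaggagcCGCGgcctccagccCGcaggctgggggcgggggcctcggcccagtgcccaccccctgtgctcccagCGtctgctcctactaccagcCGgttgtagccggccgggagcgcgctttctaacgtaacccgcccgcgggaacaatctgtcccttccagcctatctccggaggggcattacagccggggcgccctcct
Itga2b, chr11:102469834-102470133, minus strand: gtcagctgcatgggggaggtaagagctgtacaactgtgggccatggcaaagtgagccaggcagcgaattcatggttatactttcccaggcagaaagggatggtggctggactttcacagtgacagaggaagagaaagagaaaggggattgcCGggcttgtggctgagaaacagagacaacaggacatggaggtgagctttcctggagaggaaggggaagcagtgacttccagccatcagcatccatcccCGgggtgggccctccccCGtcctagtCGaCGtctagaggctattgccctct
Tfrc, chr16:32608872-32609171, plus strand: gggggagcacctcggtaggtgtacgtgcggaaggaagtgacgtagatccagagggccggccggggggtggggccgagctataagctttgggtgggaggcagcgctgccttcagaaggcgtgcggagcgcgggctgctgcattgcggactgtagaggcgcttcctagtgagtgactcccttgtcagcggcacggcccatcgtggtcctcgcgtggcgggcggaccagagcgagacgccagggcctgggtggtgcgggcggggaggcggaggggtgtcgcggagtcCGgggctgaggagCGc

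The Zfpm1 window held 37 CG pairs, of which 23 were measured, and the Epb41 window held 37, of which 11 were measured. Sptb had 8 of 21 pairs measured, Itga2b 5 of 6, and Tfrc 2 of 30. Mean methylation over the measured positions of the Zfpm1 window was 0.461%, 3.596% and 3.24% in KI LT-HSC, ST-HSC and MPP, against 1.80%, 4.59% and 2.67% in the same cell types of Control. The printed windows of Epb41, Sptb and Itga2b were also low, at 0.926% to 12.8% over all 6 libraries. A second Epb41 window with 3 shared positions, not printed, had 0%, 4.39% and 0% in KI LT-HSC, ST-HSC and MPP, against 12.92%, 5.98% and 0% in the same cell types of Control, and the 3 positions of Tfrc ranged between 0.641% and 14.96%. All 57 measured positions in the windows of the set fell on a C or G of a CG pair.

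Genes that the assay missed had few CG pairs at their start. Over the 7 genes with a window and no shared position, the largest number of CG pairs in a window had a median of 3 and reached 8, against a median of 7 and a maximum of 37 over the 12 covered genes with a window; the median of all 32851 windows was 7. The letters of 4 motifs were counted on both strands. GATAA, the core read by GATA factors, was in windows of 9 of 19 genes (47.4%) and in 25.4% of all windows. CCNCNCCC, the form read by KLF1, was in windows of 11 of 19 genes (57.9%), against 49.5% of all windows. The composite motif of an E-box part and a GATA core, bound by TAL1 with GATA1 and overlapping the GATA motif in its last letters, was in windows of 3 genes (15.8%), against 2.28% of all windows. GGAANT, the core read by ETS factors, was in windows of 14 genes (73.7%), against 53.4% of all windows. The shares of the set count a gene once over its windows, and none of the 5 windows printed held the GATA motif.

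Gene ends of the set were nearly unmethylated in every library, with 2 exceptions. Of 13 genes with at least 3 shared positions within 1 kb of an end, 11 stayed under 10% in all 6 libraries (84.6%, against 71.1% of 14425 gene ends over all genes). These were Klf1, the erythroid Krüppel-like factor; Zfpm1, encoding the GATA1 cofactor FOG1; Tfrc, the transferrin receptor; Ank1, Sptb and Dmtn, encoding ankyrin, beta spectrin and dematin of the red cell membrane skeleton; Car2, a carbonic anhydrase; Itga2b and Itgb3, encoding both chains of the platelet fibrinogen receptor; Gp1bb, a subunit of the von Willebrand receptor; and Pf4, platelet factor 4. These levels weight positions equally. By the share of all reads in the region, the Zfpm1 ends had 12.4% in KI ST-HSC and 14.5% in Control ST-HSC. The exceptions by unweighted means were Nfe2, which encodes the haematopoietic subunit of the factor NF-E2, and Epb41, encoding protein 4.1. The 4 positions near the Nfe2 end with the lower coordinate were at 100%, 81.8% and 94.1% in KI LT-HSC, ST-HSC and MPP, against 90.5%, 97.9% and 100% in the same cell types of Control. Nfe2 had no promoter window, so whether this end holds its start was not read here. The ends of Epb41 lay between 10.5% and 12.9% in all 6 libraries over 25 positions. Of these, 23 lay close together, at 0% to 5.43% on the forward strand and 6.22% to 10.2% on the reverse strand over the libraries. The few remaining positions thus raised the mean.

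Between genotypes the gene ends of the set differed by little. The median difference between KI and Control over the 13 genes was -0.54 percentage points for LT-HSC, 0.49 for ST-HSC and -0.07 for MPP. Over the ends of all genes it was -0.12, 0.64 and 1.22 points in the same cell types. The ends of 1 gene, Klf1, were higher in KI in all 3 cell types (7.69%, against 22.9% of all gene ends), and those of 1 gene, Pf4, were lower (7.69%, against 5.19%). By the share of all reads, Klf1 was lower in KI MPP by a difference of -0.19 points, and Pf4 was lower in all 3. Pf4 had 0.647%, 3.07% and 3.90% in KI LT-HSC, ST-HSC and MPP, against 4.52%, 4.25% and 7.86% in the same cell types of Control over 7 positions. The genotype coefficient for Pf4 was -1.46 ± 0.58 (SE) on the log2 scale of methylated to unmethylated reads, with a limma p of 0.0401 that adjustment over all 24011 regions moved to 0.737.

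Klf1 was unmethylated in Control LT-HSC and low in the other libraries. Its 14 positions averaged 6.59%, 1.86% and 2.33% in KI LT-HSC, ST-HSC and MPP, against 0%, 1.67% and 1.24% in the same cell types of Control. Summed over the 14 positions, KI LT-HSC had 183 reads, of which 11 were methylated (6.01%, 95% Wilson interval 3.39 to 10.4). Control LT-HSC had 0 of 1156 reads (upper Wilson bound 0.331). A single position had 11 to 17 reads in KI LT-HSC. The first of the 14 positions, chr8:84902723, was at 63.6% in 11 reads of KI LT-HSC and at 0% in 114 reads of Control LT-HSC. The difference of the whole end stayed under the 10 points needed for a call. Read counts of regions and clusters, here and below, are sums over positions, so a read that spans several positions is counted at each. The intervals and Fisher exact tests take these counts as independent, which can make intervals too narrow and p-values too small. Such intervals cover counting error only, since reads may also be copies of 1 molecule.

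**Figure D1:**
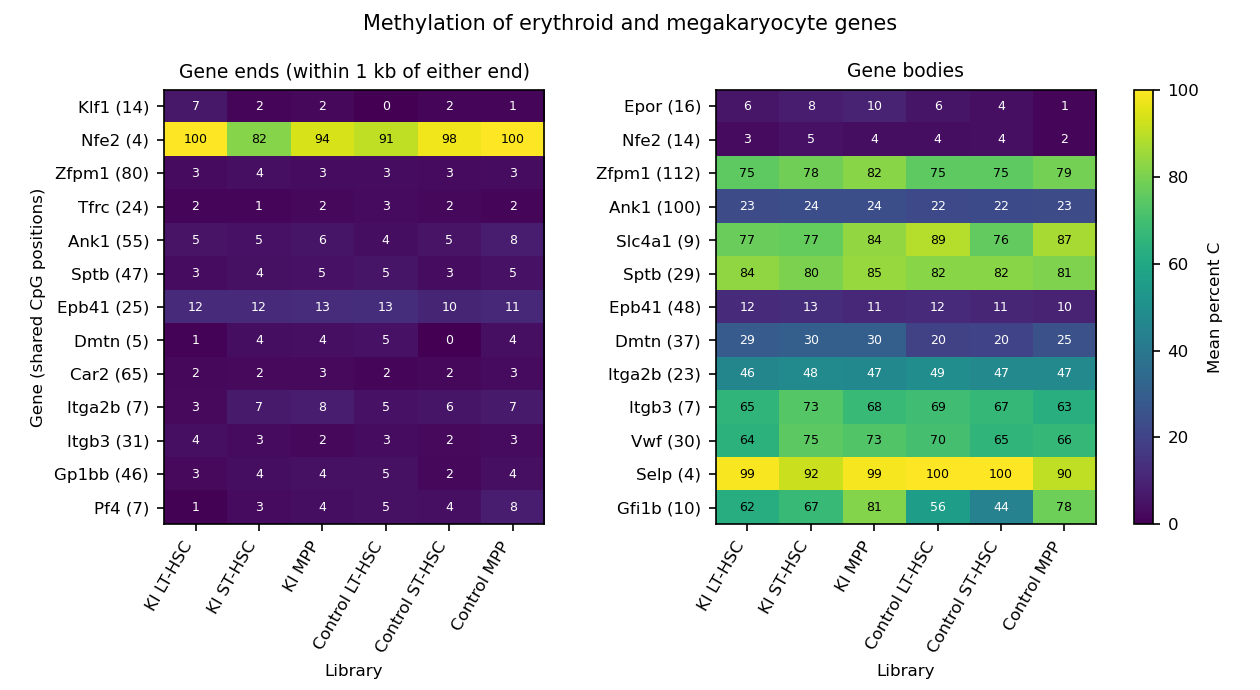
Mean percent C over shared CpG positions for gene ends (left) and gene bodies (right) of the set, by library, with the KI libraries left of the Control libraries and the number of positions in brackets. Ends are dark (under 10%) in 11 of 13 genes, and bodies range from 1.24% (Epor in Control MPP) to 100% (Selp).

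Gene bodies covered the whole range of methylation. Over 13 genes with at least 3 shared positions more than 1 kb inside both ends, the lowest library value was 1.24% and the highest 100%. Zfpm1, Slc4a1, Sptb, Itgb3, Vwf and Selp were over 50% in all 6 libraries, and Nfe2 was the 1 body under 10% in all 6. For 5 of 13 genes the body was higher in KI in all 3 cell types (38.5%, against 24.9% of 9586 bodies over all genes) and for 0 it was lower in all 3. The 5 were Zfpm1, Ank1, Epor, Dmtn and Gfi1b. These levels weight positions equally. By the share of all reads in the region, which weights positions by depth, 5 bodies were again higher in KI in all 3 cell types (38.5%, against 18.5% of all bodies), but they were Zfpm1, Epor, Dmtn, Vwf and Nfe2, and 1 body, Epb41, was lower in all 3 (7.69%, against 8.6%). Both measures gave 3 of 13 higher (23.1%, against 13.3%), namely Zfpm1, Epor and Dmtn. By reads, the Ank1 body was 11.01%, 19.1% and 21.6% in KI LT-HSC, ST-HSC and MPP, against 21.5%, 20.5% and 16.5% in the same cell types of Control. Gfi1b was 53.5%, 76.6% and 82.2% by reads in KI LT-HSC, ST-HSC and MPP, against 57.4%, 42.95% and 82.7% in the same cell types of Control. The median difference between KI and Control was -0.20 points for LT-HSC, 2.30 for ST-HSC and 3.36 for MPP, against 0.12, 1.13 and 1.02 over all bodies.

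Dmtn, whose product dematin bundles actin in the red cell membrane skeleton, had the second largest mean difference among the bodies, after Gfi1b. Its body averaged 28.5%, 30.4% and 30.2% in KI LT-HSC, ST-HSC and MPP, against 19.6%, 20.1% and 24.8% in the same cell types of Control. Every KI library was above every Control library. The difference was 8.26 ± 2.54 points (SD over 3 cell types), and it was not called in any cell type. By the share of all reads it was smaller and less even, at 2.56, 3.41 and 9.70 points in LT-HSC, ST-HSC and MPP, or 5.22 ± 3.90 (SD over 3 cell types). Gfi1b, a repressor needed for erythroid and megakaryocytic development in the mouse, had a wider spread. Its body averaged 62.4%, 67.3% and 81.3% in KI LT-HSC, ST-HSC and MPP, against 55.8%, 44.3% and 77.9% in the same cell types of Control. The genotypes overlapped there, and the difference was 10.98 ± 10.5 points (SD over 3 cell types).

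Epor, the erythropoietin receptor, was low throughout its body but apart between genotypes in MPP. It averaged 5.98%, 7.54% and 10.0% in KI LT-HSC, ST-HSC and MPP, against 5.75%, 3.94% and 1.24% in the same cell types of Control. The direction in Vwf, encoding von Willebrand factor, depended on how positions were weighted. Its body averaged 64.2%, 74.7% and 72.8% in KI LT-HSC, ST-HSC and MPP, against 70.4%, 65.3% and 66.5% in the same cell types of Control. By the share of all reads it was 74.2%, 72.6% and 77.8% in KI LT-HSC, ST-HSC and MPP, against 66.1%, 65.3% and 64.3% in the same cell types of Control, so KI was higher in all 3. Slc4a1, encoding the anion exchanger band 3, averaged 77.1%, 76.5% and 83.6% in KI LT-HSC, ST-HSC and MPP, against 88.8%, 76.1% and 87.0% in the same cell types of Control. Itgb3 was between 63.3% and 73.5% over the 6 libraries, Sptb between 80.2% and 84.7%, Itga2b between 46.1% and 49.1%, Ank1 between 22.0% and 24.2%, and Epb41 between 10.1% and 13.03%. Selp, encoding P-selectin, was at 90.4% or more in every library over its 4 positions.

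Few regions of the set were called between genotypes. A region was called between 2 libraries at a Fisher exact adjusted p under 0.01, adjusted over 24011 regions, and at least 10 points between them. In LT-HSC, 0 of 26 regions were called higher in KI (2.61% of all regions) and 1 lower (1.31% of all regions), the Slc4a1 body at 77.1% in KI and 88.8% in Control (adjusted p = 4.5e-07, Fisher exact). In ST-HSC, 1 of 26 was called higher in KI (3.6% of all regions), the Gfi1b body at 67.3% in KI and 44.3% in Control (adjusted p = 2.2e-24, Fisher exact). In the same cells 1 was called lower (0.416% of all regions), the Nfe2 ends at 81.8% in KI and 97.9% in Control (adjusted p = 0.0086, Fisher exact). The 44 KI and 96 Control reads behind it are sums over 4 positions on 1 strand. Each position had 11 reads in KI and 24 in Control, so the same reads may be counted at all 4. The test takes them as independent. In MPP, 0 regions were called higher (4.13% of all regions) and 0 lower (1.33% of all regions). Each call compares 2 libraries and not the genotypes.

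The test across cell types, with limma and cell type as a block, called 0 regions of the set between KI and Control at an adjusted p under 0.05. Over all 24011 regions it called 0 higher (0%) and 1 lower (0.00416%). The lowest adjusted p in the set was 0.705, for the Epor body, whose coefficient was 1.23 ± 0.42 (SE) on the log2 scale and whose unadjusted p was 0.0234. At an unadjusted p under 0.05, 1 of 26 regions was higher (3.85%) and 1 lower (3.85%), against 1286 of 24011 regions higher (5.36%) and 309 lower (1.29%) over all genes.

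Gene bodies pool fully methylated and unmethylated stretches, so the set was also read in clusters of at least 3 shared positions with gaps of at most 200 bases. This unit was chosen after the data had been seen. The set had 63 clusters in 18 genes, among 38990 genome-wide. Of the 63, 24 were at 10% or less in all 6 libraries and 11 were at 90% or more. The other 28 (44.4%, against 38.4% genome-wide) were partly methylated, meaning between 10% and 90% in at least 1 library. Partial methylation in sorted cells can mean a share of cells or a share of alleles, and these cannot be told apart. The 4 end positions of Nfe2, called as a region in ST-HSC, also formed a cluster, which was not called in any cell type. Clusters called between KI and Control lay in Zfpm1, Dmtn, Gfi1b, Ank1, Epor, Sptb, Vwf and the flank of Gp1bb. They are counted per cell type below, beside the share of all clusters.

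In LT-HSC, 3 of 63 clusters were called higher in KI (4.42% of all clusters) and 2 lower (2.47% of all clusters). In ST-HSC, 7 were called higher (11.1%, against 5% of all clusters) and 1 lower (0.826% of all clusters). In MPP, 7 were called higher (11.1%, against 7.34% of all clusters) and 1 lower (2.37% of all clusters). Regardless of a call, 11 of 28 partly methylated clusters were higher in KI in all 3 cell types (39.3%, against 24.7% genome-wide) and 1 lower (3.57%, against 6.57%). A cluster could count as partly methylated through its higher libraries alone, as clusters of Dmtn and Epor did through KI. That count is thus partly set by the filter and is not support for a difference. Over all 63 clusters the counts were 16 higher (25.4%, against 19.3%) and 2 lower (3.17%, against 7.13%). Called higher in all 3 cell types were 2 of 63 clusters (3.17%, against 0.61% of all clusters), 1 in Zfpm1 and 1 in Dmtn, and 0 were called lower in all 3 (0.0385% of all clusters). With each position thinned to 10 reads, an alternative chosen after seeing the data, 1 cluster of the set was called in ST-HSC, and the counts for LT-HSC and for MPP were both 0. The share of all clusters called after thinning is not given here.

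The Zfpm1 cluster lay at chr8:122294449-122294624, 12.6 kb inside the gene from its start, and had 6 positions on both strands. It averaged 22.0%, 39.3% and 55.2% in KI LT-HSC, ST-HSC and MPP, against 8.498%, 23.0% and 25.5% in the same cell types of Control. KI was above Control by 13.5, 16.2 and 29.7 points, and within each genotype the level was higher in ST-HSC than in LT-HSC and higher again in MPP. The Fisher exact adjusted p was 2.4e-11 for LT-HSC, 1.1e-04 for ST-HSC and 1.6e-17 for MPP, on 488 to 849 reads per library summed over the 6 positions. KI exceeded Control on the forward strand (16.9%, 34.6% and 46.0% in KI LT-HSC, ST-HSC and MPP, against 14.02%, 14.7% and 16.1% in Control) and on the reverse strand (27.2%, 43.9% and 64.3%, against 2.98%, 31.4% and 34.9%). At chr8:122294624, a position on the reverse strand, KI LT-HSC, ST-HSC and MPP had 47.1%, 81.5% and 89.5%, against 0%, 55.0% and 39.2% in the same cell types of Control.

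The neighbouring clusters of Zfpm1 did not follow 1 pattern between genotypes. At 14.7 kb from the start, 5 positions averaged 14.2%, 35.4% and 57.1% in KI LT-HSC, ST-HSC and MPP, against 24.98%, 30.4% and 36.6% in the same cell types of Control. KI was thus called lower in LT-HSC and higher in MPP in the same cluster. The LT-HSC gap was wider on the forward strand (11.1% in KI and 31.2% in Control) than on the reverse strand (16.2% and 20.8%). The MPP gap was wider on the reverse strand (51.4% in KI and 21.8% in Control) than on the forward strand (65.7% and 58.8%). At 24.9 kb, 3 positions were called in ST-HSC, at 98.1% in KI and 61.7% in Control. At 27.7 kb, 5 positions averaged 0.741%, 14.1% and 32.6% in KI LT-HSC, ST-HSC and MPP, against 0%, 6.24% and 60% in the same cell types of Control. KI was called lower in MPP. Control LT-HSC had 48 to 59 reads at a position there, and 0 of the 259 summed over positions were methylated (upper Wilson bound 1.46). The Control MPP library had 0% on the forward strand (13 and 17 reads) and 100% on the reverse strand (18 reads), so its mean rests on strands that did not agree. The end cluster of 75 positions around the start, which overlaps the predicted gene Gm39269, stayed between 1.28% and 2.51%, and the 72 positions 54.3 kb from the start, near the other end of the gene, between 94.4% and 97.0%.

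**Figure D2:**
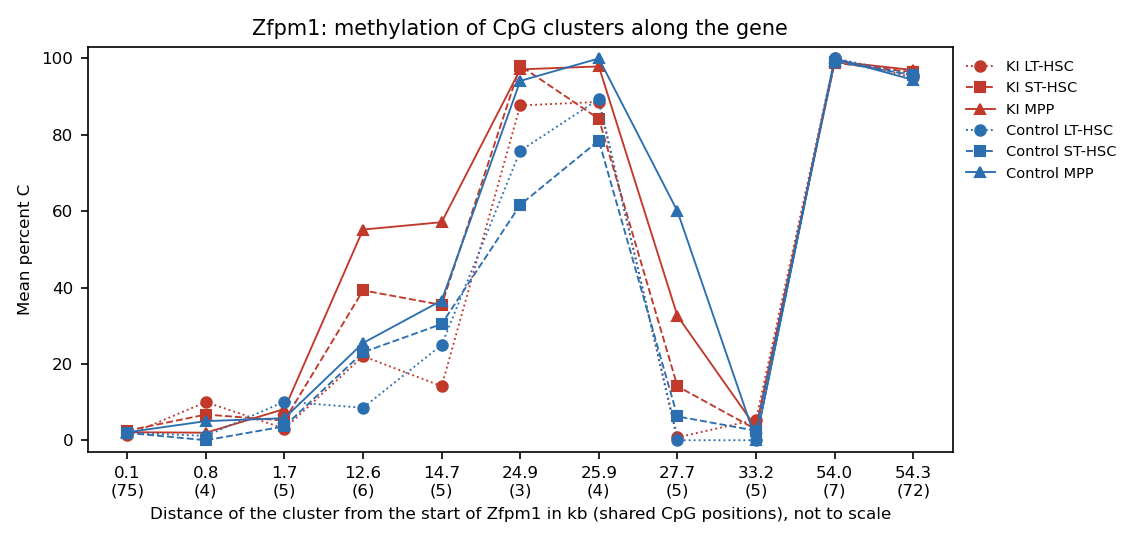
Mean percent C of the 11 CpG clusters of Zfpm1 in the order of their distance from the start, in kb (not to scale), with the number of shared positions in brackets; red is KI, blue is Control, and the marker and line style give the cell type. All libraries lie between 1.28% and 2.51% at the start and between 94.4% and 97.0% at the far end, and they spread at 12.6, 14.7 and 27.7 kb, where MPP lie above LT-HSC in both genotypes. They also spread at the next cluster after 14.7 kb, where KI ST-HSC lies 36.4 points above Control ST-HSC.

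The Dmtn cluster lay at chr14:70622509-70622530, 20.3 kb from the end of the gene with the lower coordinate. It had 4 positions, all read on the forward strand. It averaged 55.5%, 58.9% and 76.7% in KI LT-HSC, ST-HSC and MPP, against 27.0%, 33.0% and 45.0% in the same cell types of Control. The difference was 28.7 ± 2.91 points (SD over 3 cell types), and every KI library was above every Control library. The Fisher exact adjusted p was 6.5e-04 for LT-HSC, 0.0034 for ST-HSC and 2.5e-07 for MPP, on 63 to 186 reads per library summed over the 4 positions. A second Dmtn cluster, 24.9 kb from the same end with 10 positions, had 10.8%, 17.3% and 12.7% in KI LT-HSC, ST-HSC and MPP, against 3.82%, 3.17% and 5.95% in the same cell types of Control. It was called in ST-HSC, and the other 2 differences were under 10 points. The remaining 2 clusters of the Dmtn body were not called; 1 of them, of 3 positions, lay between 64.3% and 71.5% in all libraries.

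In Gfi1b the called difference lay in 1 of 2 clusters. The cluster at chr2:28620769-28620862, 1.12 kb inside the gene from its start and overlapping the predicted gene Gm52548, had 37.7%, 47.3% and 71.0% in KI LT-HSC, ST-HSC and MPP. The same cell types of Control had 27.97%, 12.96% and 63.2%. It was called in ST-HSC (Fisher exact adjusted p = 1.3e-13), where both strands were higher in KI, at 37.7% and 56.9% against 1.59% and 24.3% in Control. Control ST-HSC was the lowest library of this cluster, below Control LT-HSC. The other Gfi1b cluster, of 4 positions, stayed at 91.2% or more.

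Clusters of Ank1, Epor and Sptb were also called. In Ank1, a cluster of 7 positions 60.4 kb from the end with the lower coordinate, overlapping the predicted gene Gm51563, had 26.7%, 25.7% and 27.1% in KI LT-HSC, ST-HSC and MPP, against 11.1%, 11.04% and 16.5% in the same cell types of Control. KI exceeded Control by 13.6 ± 2.64 points (SD over 3 cell types), and LT-HSC was the 1 cell type called. The strands did not agree there: in MPP the forward strand had 50.4% in KI and 4.44% in Control, and the reverse strand 9.62% in KI and 25.5% in Control. With the clusters of Zfpm1 and Dmtn described above, it was 1 of 3 clusters at least 10 points higher in KI in all 3 cell types (4.76%, against 1.14% of all clusters), and 0 were lower by as much (0.0744% of all clusters). In Epor, 7 positions 2.01 kb inside the start had 7.76%, 8.95% and 15.3% in KI LT-HSC, ST-HSC and MPP, against 2.63%, 1.90% and 0% in the same cell types of Control. That cluster was called in MPP, where 30 of 243 KI reads were methylated (12.3%, 95% Wilson interval 8.79 to 17.1) and 0 of 507 Control reads (upper Wilson bound 0.752). These are sums over positions. KI MPP had 26 reads at each of 4 forward positions and 45 to 47 at each of 3 reverse positions. The strands differed in level there, at 24.0% on the forward and 3.58% on the reverse, with 0% on both in Control MPP. Most methylated counts of KI MPP thus came from the forward strand. The same reads may be counted at all 4 forward positions, so the interval may be too narrow. In Sptb, 5 positions on the forward strand were called in MPP, at 99.0% in KI and 80.0% in Control, with 11 to 15 reads at a position in Control MPP. In ST-HSC the direction was the other way, at 89.2% in KI and 96.7% in Control.

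**Figure D3:**
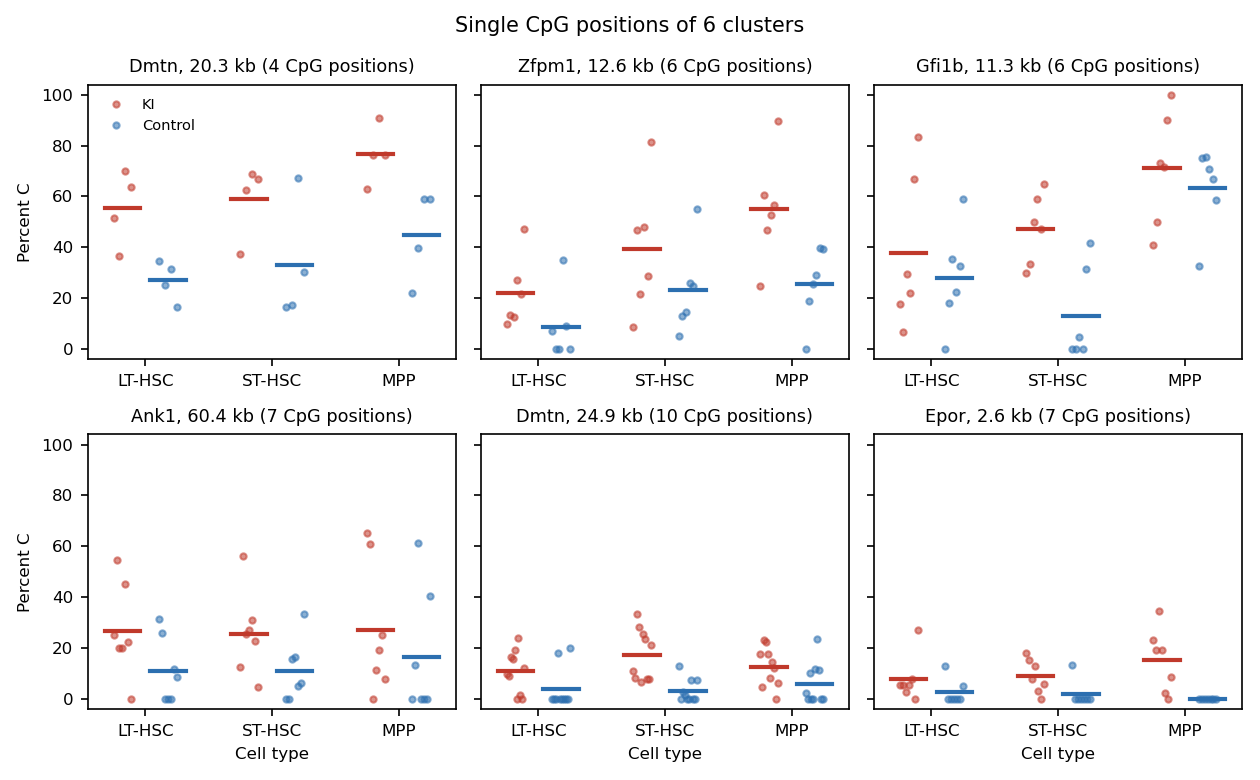
Percent C of single CpG positions (points) and their mean (bars) in 6 clusters, by cell type, with KI (red) left of Control (blue); the panel titles give the distance in kb from the gene end with the lower coordinate. In the panels of Dmtn (20.3 kb) and Zfpm1 (12.6 kb) the KI mean lies above the Control mean in all 3 cell types, while in Gfi1b the gap is widest in ST-HSC (47.3% in KI and 12.96% in Control).

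Among platelet genes, Vwf and the flank of Gp1bb held the called clusters. In Vwf, 9 positions 96.3 kb from the end with the lower coordinate had 48.7%, 76.5% and 71.1% in KI LT-HSC, ST-HSC and MPP, against 65.1%, 56.5% and 57.0% in the same cell types of Control. They were called higher in ST-HSC and MPP. In LT-HSC the unweighted mean of positions was lower in KI by 16.4 points, but the share of all reads was 60.9% in KI and 60.4% in Control (Fisher exact adjusted p = 1). A Vwf cluster of 3 positions was called in ST-HSC, at 86.9% in KI and 59.6% in Control, and another of 3 positions in MPP, at 100% in KI and 78.2% in Control. Beside Gp1bb, 5 flank positions that lie within Septin5 had 60.9%, 42.0% and 60.5% in KI LT-HSC, ST-HSC and MPP, against 72.4%, 58.9% and 51.3% in the same cell types of Control. They were called lower in KI LT-HSC and ST-HSC. The clusters of Itga2b, Itgb3, Pf4 and Selp gave 0 calls.

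From LT-HSC to MPP, clusters of the set that moved by at least 10 points in both genotypes all moved up. There were 7 of 63 such clusters (11.1%, against 2.23% of all clusters) and 0 in the other direction (0.695% of all clusters). They lay in 5 genes: 3 in Zfpm1 and 1 each in Nfe2, Dmtn, Gfi1b and Vwf. In Control the step of each of the 3 Zfpm1 clusters lay almost wholly on 1 strand, as given below. By the Fisher exact test 5 were called in both genotypes (7.94%, against 1.41% of all clusters) and 0 were called lower in both (0.349% of all clusters). In KI alone 7 clusters were called higher in MPP (4.53% of all clusters) and 0 lower (1.42% of all clusters). In Control alone 7 were called higher (5.94% of all clusters) and 2 lower (5.33% of all clusters). Of the 28 partly methylated clusters, 17 were higher in MPP than in LT-HSC in both genotypes (60.7%, against 32.9% genome-wide) and 1 was lower (3.57%, against 19.2%). A cluster could pass that filter through its MPP libraries alone, so this count is partly set by the filter too.

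The steps were large in Zfpm1 and Gfi1b. The Zfpm1 clusters at 12.6, 14.7 and 27.7 kb were higher in MPP than in LT-HSC by 33.2, 43.0 and 31.8 points in KI, against 17.0, 11.6 and 60 points in Control. In KI both strands were higher in MPP at each, but in Control each step lay almost wholly on 1 strand. At 12.6 kb, Control LT-HSC and MPP had 14.02% and 16.1% on the forward strand, but 2.98% and 34.9% on the reverse strand. At 14.7 kb they had 31.2% and 58.8% on the forward strand, but 20.8% and 21.8% on the reverse strand. At 27.7 kb they had 0% and 0% on the forward strand, but 0% and 100% on the reverse strand. The Gfi1b cluster near the start was higher in MPP by 33.3 points in KI and 35.3 points in Control. The Nfe2 cluster of 3 forward-strand positions, 1.22 kb outside the gene beyond its upper coordinate, had 14.7%, 28.2% and 35.6% in KI LT-HSC, ST-HSC and MPP, against 14.7%, 15.4% and 33.3% in the same cell types of Control. The Dmtn cluster of 4 positions was higher in MPP by 21.2 points in KI, where it was called, and by 18.0 points in Control, where it was not. The Vwf cluster at 43.7 kb, of 3 positions, was higher in MPP by 28.8 points in KI, where it was called, and by 11.5 points in Control, where it was not.

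**Figure D4:**
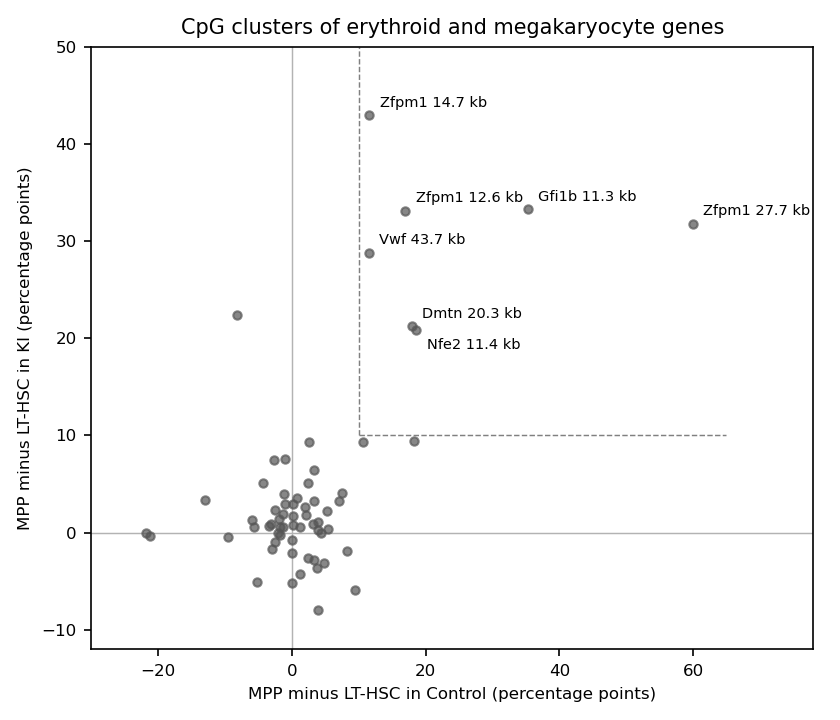
Difference in mean percent C between MPP and LT-HSC for the 63 clusters, in KI (vertical axis) and in Control (horizontal axis), both in percentage points; dashed lines mark 10 points in both, and distances are in kb from the gene end with the lower coordinate. The 7 named clusters lie beyond 10 points in both genotypes, and no cluster lies below -10 points in both.

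The limma fit over all 6 libraries called 0 clusters and 0 regions of the set for MPP against LT-HSC, and likewise for ST-HSC against LT-HSC. Over all genes it called 0 regions and 0 clusters in either direction (0% each). The lowest adjusted p in the set for MPP was 0.337, for the Zfpm1 cluster at 27.7 kb, and 0.546 among regions, for the Gfi1b body. At an unadjusted p under 0.05, 8 clusters were higher in MPP (12.7%, against 5.11% of all clusters) and 0 lower (2.64% of all clusters). Among regions 2 of 26 were higher (7.69%, against 6.29% of all regions), the bodies of Gfi1b and Zfpm1, and 0 lower (2.11% of all regions). For ST-HSC against LT-HSC, 2 clusters were higher at that level (3.17%, against 2.79%) and 1 lower (1.59%, against 2.32%). For KI against Control the lowest adjusted p among clusters was 0.653, and at an unadjusted p under 0.05, 7 clusters were higher in KI (11.1%, against 5.72%) and 0 lower (1.53%). Over all clusters 0 were called higher in KI (0%) and 1 lower (0.00256%).

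Single CpG positions of the set were called in both directions in every cell type. A position was called at a Fisher exact adjusted p under 0.01, adjusted over 552338 shared positions, and at least 25 points. In LT-HSC, 12 of 951 were called higher in KI (1.26%, against 1.28% of all positions) and 18 lower (1.89%, against 1.34%). In ST-HSC, 13 were called higher (1.37%, against 0.557%) and 1 lower (0.105%, against 0.115%). In MPP, 23 were called higher (2.42%, against 2.26%) and 17 lower (1.79%, against 1.49%).

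A list of 64 other erythroid and megakaryocytic genes gave 63 tested regions in 45 genes. In LT-HSC, 0 were called higher in KI (2.61% of all regions) and 2 lower (3.17%, against 1.31% of all regions), the bodies of Steap3, a ferrireductase (45.8% in KI and 59.9% in Control), and Ermap, an erythroid membrane protein (79.5% in KI and 90.8% in Control). In ST-HSC, 1 was called higher (1.59%, against 3.6%), the ends of Rhd, an Rh antigen (89.2% in KI and 70.7% in Control), and 0 lower (0.416% of all regions). In MPP, 4 were called higher (6.35%, against 4.13%) and 1 lower (1.59%, against 1.33%). They included the body of Alad, an enzyme of haem synthesis (63.4% in KI and 50.5% in Control), the body of Ermap (99.7% in KI and 89.3% in Control) and the ends of Trim58, a ubiquitin ligase of late red cell precursors (13.8% in KI and 0% in Control). The region called lower in MPP was the body of Thbs1, encoding thrombospondin, at 87.5% in KI and 100% in Control. Of the 124 clusters of this list, 0 were called in all 3 cell types, and 6 (4.84%, against 2.23% of all clusters) were at least 10 points higher in MPP than in LT-HSC in both genotypes, while 0 were lower by as much (0.695% of all clusters). Of these 6, 3 lay in Gata2, which encodes a GATA factor of stem and progenitor cells. A Gata2 cluster, singled out after its values were seen, had 7 positions and averaged 16.8%, 16.1% and 46.1% in KI LT-HSC, ST-HSC and MPP, against 7.68%, 7.92% and 38.6% in the same cell types of Control.

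The libraries differed in depth, with 38284759 to 53884467 reads summed over positions. Medians ranged from 27 reads per position in KI ST-HSC to 45 in KI LT-HSC, and Control ST-HSC had 30. Methylation does not give expression, so the sorted identity could be checked only at the DNA of marker genes. Of the sort genes Kit, Ly6a, Slamf1 and Cd48, only Kit was tested. Its ends had 4.11%, 4.21% and 2.15% in KI LT-HSC, ST-HSC and MPP, against 0.667%, 0.639% and 0.889% in the same cell types of Control, with a limma adjusted p of 0.705. Its body, of 4 positions, had 9.55%, 10.8% and 17.5% in KI LT-HSC, ST-HSC and MPP, against 7.68%, 8.49% and 2.17% in the same cell types of Control, and was called higher in MPP (Fisher exact adjusted p = 1.7e-13). Of 10 myeloid genes 6 were tested and of 10 lymphoid genes 3. The 3 tested ends of the myeloid list lay between 27.1% and 100% over the libraries, and the 1 tested end of the lymphoid list between 1.83% and 3.16%. Their part in the results was not tested.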

How the data were processed

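The 6 labelled samples gave 1 library each. Per the submitters' processing notes, the tools were Bismark 0.10.0, SAMtools 1.0 and methylKit 0.9.1 and the build was mm10; settings were not given in any source used here. Files deposited by the authors list, per cytosine, a count of covering reads (at least 10) and the percent of reads that kept C or became T, per the file headers. Methylated reads, computed as coverage times percent C, were whole numbers for 100% of positions within 0.01% of the coverage. Of 1352372 positions, 552338 were covered in all 6 libraries. Strands were kept apart.

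Gene extents came from RefSeq (GRCm38.p6), with strand only where a promoter window gave it. Levels are unweighted means of percent C. Reads summed over the positions of a region or cluster were compared between 2 libraries with a two-sided Fisher exact test. The test was coded with numba 0.67.0 and checked against scipy 1.17.1. The log2 ratios of methylated to unmethylated reads (prior count 1) went into limma 3.58.1 (R 4.3.3), with genotype and cell type as terms and a variance trend. All p-values were Benjamini-Hochberg adjusted over all regions, clusters or positions. The error from limma reflects differences among cell types and libraries; whether 1 pool of mice gave all 3 cell types is not stated. Scripts were tested on simulated data. Exons and introns were not analysed here.

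The members and lists were chosen with earlier results of these data known. Members were named with values in all libraries where a mean difference was among the 8 largest in size, a region or at least 2 CpGs were called, or a level lay at 10 to 90%; others are given by range. The alternatives covered coverage minima, pooling, end width, strands, thinning to 10 reads, prior count, block and left-out cell types. One region counted among the calls of the list of other genes is not reported here by name.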

Additional observations from a re-analysis of the deposited data

Results flagged for a closer look

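Of the 63 clusters, 9 were at least 5 points higher in KI in 1 cell type and at least 5 points lower in another, and 3 were so at 10 points, 1 in Zfpm1 and 2 in Vwf, all by unweighted means. The share of all clusters that did so is not given, so these counts do not set the genes apart from others. The Zfpm1 cluster was the only 1 of the set called by the Fisher exact test in both directions. At the Zfpm1 cluster 14.7 kb from the start (5 positions), KI was lower than Control in LT-HSC (difference -10.83 points, with 14.2% in KI and 24.98% in Control) and higher by 20.52 points in MPP (57.1% in KI and 36.6% in Control). Both differences were called by the Fisher exact test, with adjusted p of 0.0023 in LT-HSC and 3.2e-04 in MPP, and ST-HSC lay between them at 4.99 points. The wider gap lay on the forward strand in LT-HSC and on the reverse strand in MPP. The difference between the cell types was not tested itself. With both strands of a CpG merged the LT-HSC difference was -7.83 points and was no longer called, and after thinning to 10 reads it was 0.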

How the results depend on the processing

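No paired analysis was possible by replicate number because each group had 1 library and the labels gave no replicate numbers; the limma fit compared KI with Control within each cell type instead. Of the recomputed values, 101 stayed near the reported one and 49 moved; the cause was not tested. Near means within 1.5 times for counts, and for medians within the SD of the 3 reported medians (0.515 points for ends, 1.83 for bodies). Clusters and their alternatives, and limma with thinned reads, merged strands or narrower ends, were chosen after seeing the data.

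limma called 0 clusters and 0 regions of the set in every setting run, with the lowest adjusted p between 0.144 and 0.834. Over all genes, the 1 region lower in KI became 0 with thinning to 10 reads, ends within 500 bases, a prior count of 0.5, the mean of percent C, or without the LT-HSC libraries. Without the ST-HSC libraries 28 regions were higher and 2 lower, and without the MPP libraries 4 higher and 2 lower. Without the ST-HSC libraries the fit also called 83 regions between MPP and LT-HSC. The 1 cluster lower in KI became 2 with at least 5 positions or without the block. It became 0 with at least 20 reads, thinning, a gap of at most 100 bases, a prior count of 0.5, the mean of percent C, or without the LT-HSC, ST-HSC or MPP libraries.

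The Fisher counts below show only how the set moved between settings, since shares over all genes are not given for the alternatives. Fisher counts of regions of the set were 1, 2 and 0 in LT-HSC, ST-HSC and MPP. They were 4 in LT-HSC and 3 in MPP at 5 points; 0, 1 and 1 with at least 20 reads in the 3 cell types; 1 in ST-HSC with at least 5 positions; 0 in LT-HSC and 0 in ST-HSC after thinning; and 1 in ST-HSC and 1 in MPP with ends within 500 bases. Counts of clusters were 5, 8 and 8. They were 12 in LT-HSC at 5 points, 3 in ST-HSC and 5 in MPP with at least 20 reads, 5 in ST-HSC with at least 5 positions, and 0, 1 and 0 after thinning. The Zfpm1 cluster at 12.6 kb stayed called in all 3 cell types with at least 20 reads, whereas the Dmtn cluster at 20.3 kb had too few positions at that minimum, and neither was called after thinning. Their differences after thinning were 13.3, 13.3 and 28.3 points for Zfpm1 and 40, 25 and 12.5 for Dmtn in LT-HSC, ST-HSC and MPP, against the reported 13.5, 16.2 and 29.7 and 28.4, 25.9 and 31.7. Counts of positions were 30, 14 and 40. They were 48 in LT-HSC and 67 in MPP at 10 points, and 19, 7 and 26 with at least 20 reads.

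The median difference of gene ends moved in LT-HSC from the reported -0.54 to -1.34 with at least 20 reads, 0 after thinning and -1.19 with positions of both libraries of the cell type. In ST-HSC it was 1.43 with at least 20 reads, and in MPP, from the reported -0.07, 0.58 with pooled reads and -0.83 after thinning; it also changed sign, to 0.14, with strands merged. With pooled reads, 2 gene ends in place of 1 were higher in KI in all 3 cell types, and 1 body in place of 0 was lower. Over the alternatives, medians of gene bodies ranged between -1.72 (pooled reads) and 0 (thinning) for LT-HSC, against -0.20 reported. They ranged between 1.45 and 3.48 for ST-HSC and between 1.71 and 4.91 for MPP. Thinning shows that the calls rest on depth beyond 10 reads per position. Reads that are copies of 1 molecule, or that are counted at several positions, would overstate that depth.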

Other observations

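Outside the 28 genes, 6 clusters of other erythroid and megakaryocytic genes were at least 10 points higher in MPP than in LT-HSC in both genotypes. Beside the 3 in Gata2, they lay in Zbtb7a, which encodes the repressor LRF, Stat5a, a mediator of cytokine signalling, and Nbeal2, needed for platelet granules. The Zbtb7a cluster of 3 positions had 31.1%, 45.8% and 62.4% in KI LT-HSC, ST-HSC and MPP, against 34.6%, 28.1% and 59.4% in the same cell types of Control. The Nbeal2 cluster of 8 positions had 32.9%, 63.4% and 46.0% in KI LT-HSC, ST-HSC and MPP, against 12.1%, 34.0% and 47.5% in the same cell types of Control. In Stat5a, 3 positions had 71.1%, 21.1% and 88.9% in KI LT-HSC, ST-HSC and MPP, against 70.8%, 81.8% and 87.9% in the same cell types of Control, so KI ST-HSC stood apart from the other libraries.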
